A study of Homo sapiens and Mus musculus with 29 samples.

Results

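The BEX (brain expressed, X-linked) genes BEX1, BEX2, BEX3, BEX4 and BEX5 were described by their mRNA level in human pancreatic cancer xenografts. The members were found by gene symbol, and these 5 genes were among 58719 gene IDs in the table. They were selected on measured values, namely the lower BEX3 RPKM under the HNF4G-KO label. The contrast of HNF4G-KO against control tumors is therefore given as a description only. HPAF-II is a human pancreatic adenocarcinoma line, and its cells were implanted into the pancreas of immunodeficient NSG mice. All groups had received Cas9. Control tumors carried Cas9 and an empty vector (3 tumors), tumors labeled HNF4G-KO carried the HNF4G edit and an empty vector (4 tumors, with 2 peritoneal metastases), tumors labeled FOXA1-OE carried Cas9 and the FOXA1 construct (3 tumors), and tumors labeled HNF4G-KO + FOXA1-OE carried both (5 tumors from 4 mice, with 4 metastases from 3 mice). The HNF4G-KO cells were a pool of clones with frameshift mutations, so a clonal difference and the edit cannot be told apart. A separate table held 4 libraries of a mouse KPC tumor line and 4 of a KPC liver metastasis line.

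BEX proteins are small, and their genes lie in a cluster on the long arm of the X chromosome among the related TCEAL genes. BEX3, also known as NADE or NGFRAP1, binds the p75 neurotrophin receptor NGFR and takes part in cell death signaling. BEX2 and BEX3 have been described as inhibitors of a CUL2 and FEM1B ubiquitin ligase. BEX1 and BEX2 are best known from brain and neuroendocrine cells and are often silenced in gliomas, and BEX4 has been linked to tubulin and SIRT2.

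Before the comparisons, the labels were checked against their own genes. HNF4G mRNA was not lower under the HNF4G-KO label: it was 2.48 to 3.47 RPKM (reads scaled to exon length and library depth) in control tumors and 5.72 to 8.42 RPKM in tumors labeled HNF4G-KO. With the FOXA1 construct, it was 0.495 to 3.04 RPKM in FOXA1-OE tumors and 1.69 to 7.09 RPKM in HNF4G-KO + FOXA1-OE tumors, and these groups overlapped. The protein was not measured here, and groups are named below by their labels. FOXA1 was 6.32 and 8.18 RPKM in tumors 1 and 2 labeled FOXA1-OE but 0.763 RPKM in tumor 3, near the 0.519 to 0.932 RPKM of control tumors. Differences that use the FOXA1-OE tumors are therefore given with and without that tumor. In HNF4G-KO + FOXA1-OE tumors FOXA1 was 4.65 to 23.1 RPKM. In metastases 1 to 4 of that label it was 0.535, 17.9, 1.30 and 1.55 RPKM, so metastases 1, 3 and 4 were below every tumor of the label. Depth was 33.1 to 69.6 M reads per HPAF-II library, and 10 of 10 epithelial markers were at 1 RPKM or more in every library of each group.

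Sequence near the transcript starts is shown because the start regions of the members resemble each other in pairs. In RefSeq (GRCh38.p14), the sequence around the start of BEX1 and of the second of 3 listed BEX3 starts were 76.2% identical over their alignment, and those of BEX2 and the second BEX4 start were 83.6% identical. Each of the 5 genes had the letters ACGTGA (capitals below) upstream of a listed start, a motif chosen after the sequences were seen. The letters are not particular to BEX genes: the neighbors TCEAL4 and TCEAL8 have them too, 9 and 30 bases before their starts. The listed promoter of the neighbor TCEAL9 does not have them, and neither do those of the other listed BEX3 starts. All lines are read 5′ to 3′ on the strand of the gene.
BEX1 (chrX:103064200-103064229, minus strand): cgcacggccctcACGTGAccgggagctgca
BEX3 (chrX:103376480-103376509, plus strand): cgcgcggccctcACGTGAcccagagctgca
BEX2 (chrX:103310991-103311020, minus strand): gacaacagccacACGTGAtcggccaacact
BEX4 (chrX:103215078-103215107, plus strand): gacaacagccccACGTGAccggccaacact
BEX5 (chrX:102156011-102156040, minus strand): gagctcacagtgACGTGAcccttaggagac
The motif lay 46 bases before the start in both BEX1 and BEX3. On either strand, ACGTGA was found in 7.22% of all 35116 listed promoters. In the lines of BEX1, BEX2, BEX3 and BEX4 it overlaps CACGTG, which was in 7.26% of the listed promoters. The BEX5 line has no CACGTG. The FOXA letters TGTTTAC (3.42% of promoters) and the HNF4 letters CAAAGTCCA (0.384%) were found in no listed promoter of the 5 members, which says only that these letters are not in these windows.

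BEX3 was the one member with a high level, and it was lower in every library that carried the HNF4G-KO label. The order of the tumor groups was FOXA1-OE, control, HNF4G-KO and HNF4G-KO + FOXA1-OE. In control tumors BEX3 was at 109, 111 and 142 RPKM. In tumors labeled HNF4G-KO it was at 40.0, 47.3, 44.8 and 45.4 RPKM. These groups did not overlap, with means of 121 ± 18.6 RPKM (SD, n = 3) and 44.4 ± 3.12 RPKM (SD, n = 4), and the log2 difference was −1.42 on the log2(RPKM + 1) scale. This contrast chose the gene and has no test. In it, 12.1% of the 14307 genes tested were called and 46.4% had groups that did not overlap.

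The same edit was tested where the FOXA1 construct was present, in samples outside the HNF4G-KO against control contrast. The spread was estimated over all tumor groups together, so control and HNF4G-KO tumors entered the SE. Members and comparisons were chosen with earlier results of these data known, and the choice of BEX3 may have drawn on these tumors too. This is not an independent test, and its p-values give no support to the choice. BEX3 was at 145, 127 and 139 RPKM in FOXA1-OE tumors 1, 2 and 3. In tumors 1 to 5 labeled HNF4G-KO + FOXA1-OE it was at 41.3, 33.7, 43.9, 43.1 and 38.0 RPKM. Every value of the latter group was under every value of the former, and the mean was 29.4% of that in FOXA1-OE tumors. The log2 difference was −1.74 (SE 0.146, 95% interval −2.06 to −1.43, limma adjusted p = 4.99e-05, 4 against 3 mice). It had rank 3 by p among the 14307 genes, of which 7.86% were called, 4.57% were called lower and 14.6% had groups that did not overlap. The two-sided exact permutation test gave p = 0.0571, the smallest that 4 against 3 mice allow. Without FOXA1-OE tumor 3 the difference was −1.73 (limma adjusted p = 0.000402).

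**Figure D1:**
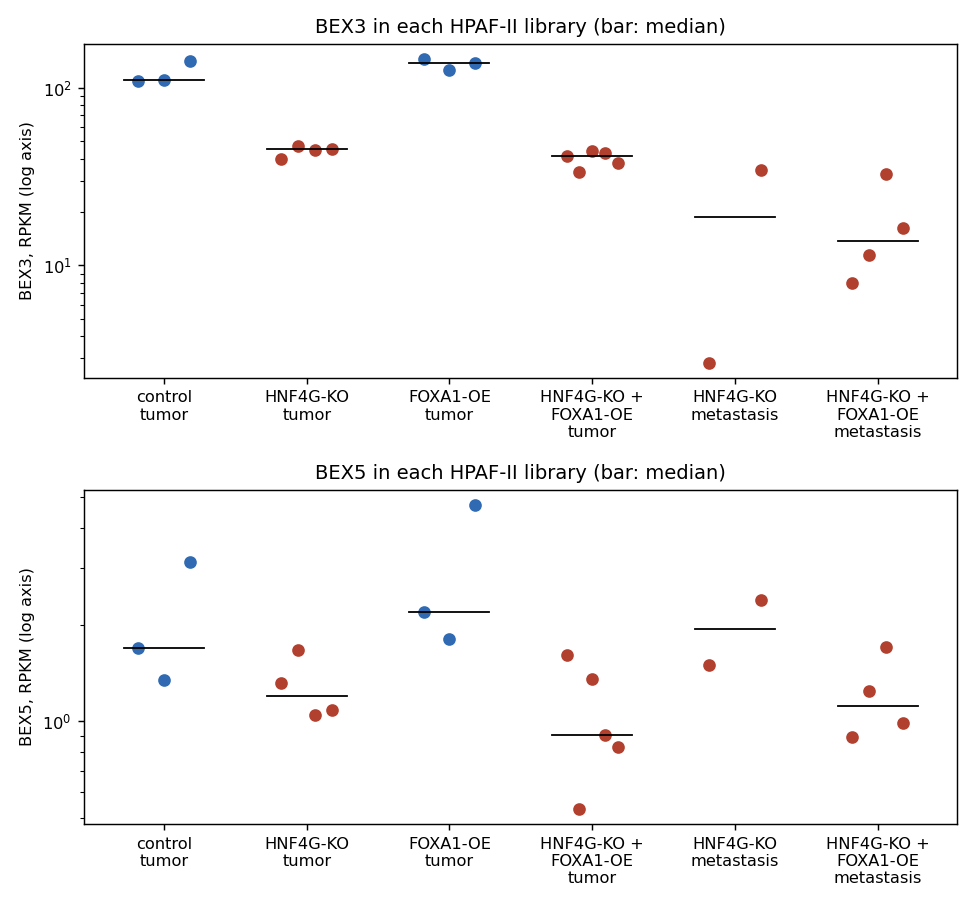
BEX3 (top) and BEX5 (bottom) in RPKM on a log axis, 1 point per HPAF-II library, with a bar at the group median; red marks groups with the HNF4G-KO label. All BEX3 points of HNF4G-KO tumors, 33.7 to 47.3 RPKM, lie under those of tumors without the label, 109 to 145 RPKM.

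The FOXA1 construct went with little difference in BEX3, and these comparisons share samples with the choice of the gene and are described only. FOXA1-OE tumors were 0.19 above control tumors on the log2 scale (0.18 without FOXA1-OE tumor 3), and their libraries overlapped. HNF4G-KO + FOXA1-OE tumors were 0.14 below HNF4G-KO tumors, and these libraries overlapped too. Against control tumors, HNF4G-KO + FOXA1-OE tumors were lower by a log2 difference of −1.55. The shares of genes called in these 3 comparisons were 0.0%, 0.0559% and 4.71%.

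BEX5, a member with no well-described role, was present at a low level. It was at 1.69, 1.34 and 3.15 RPKM in control tumors and at 1.04 to 1.66 RPKM in HNF4G-KO tumors. In FOXA1-OE tumors it was at 2.19, 1.80 and 4.71 RPKM, and in HNF4G-KO + FOXA1-OE tumors it ranged from 0.533 to 1.61 RPKM. The last pair of groups did not overlap, as for 14.6% of the 14307 genes tested. The difference of −0.86 did not pass the test (SE 0.252, limma adjusted p = 0.0516). It was −0.55 (limma adjusted p = 0.161) without FOXA1-OE tumor 3, which held the highest BEX5 value.

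BEX1, BEX2 and BEX4 were at or near 0 and did not pass the filter of a mean of 1 RPKM. BEX1 was listed at 0 in 20 of 21 libraries, BEX2 in 19 and BEX4 in 18. A count of 3 reads would be 0.0542 to 0.114 RPKM for BEX1, so a level lower than this could be listed at 0. HNF4G-KO + FOXA1-OE tumor 5 had the highest value of all 3 genes, with BEX1 at 0.552 RPKM (about 24 reads), BEX2 at 0.187 RPKM (about 12 reads) and BEX4 at 0.111 RPKM (about 8 reads). All counts above 0 of these 3 genes were even, so 2 reads may stand for 1 sequenced fragment, and the molecules behind these counts and behind the level of 3 reads may be fewer. The estimated counts of BEX3 included odd ones, so this was not settled. SOX10, a marker of nerve sheath cells, was also highest in that tumor, at 0.544 RPKM, as were 3 of 12 nerve and glia markers in all. Their part in the BEX values was not tested. BEX1 and BEX2 are close copies, and 3.49% of the 50-base windows of BEX1 occur in BEX2 too, so their reads can be split between them.

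Mouse host reads could enter a human count, so the sequences were compared. No 50-base window of BEX3 was identical to a mouse Bex transcript, and 0.926% of its 864 windows were within 2 mismatches of one. None was shared with another human gene. Summed host stroma markers were 97.9 to 229 RPKM in control tumors, 64.0 to 88.5 in HNF4G-KO tumors, 64.5 to 186 in FOXA1-OE tumors and 64.1 to 138 in HNF4G-KO + FOXA1-OE tumors. With the stroma level as a covariate, the BEX3 difference under the FOXA1 construct was −1.74.

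The neighbors of BEX3 on the chromosome, which were listed with earlier results known, moved with it in part. TCEAL genes encode proteins related to a transcription elongation factor. TCEAL9 was at 55.3, 40.8 and 32.7 RPKM in FOXA1-OE tumors and at 12.01 to 20.2 RPKM in HNF4G-KO + FOXA1-OE tumors, a log2 difference of −1.35 (limma adjusted p = 0.0019). TCEAL8 fell by 1.31 (limma adjusted p = 0.000827) and TCEAL4 fell by 1.23 (limma adjusted p = 0.000902). TCEAL3, 231.1 kb from the BEX3 start, had a difference of −0.10 and was not called. TCEAL1, at 252.3 kb, had a difference of −0.74 and was not called (limma adjusted p = 0.0622), but it was called without FOXA1-OE tumor 3 (−0.91, limma adjusted p = 0.0382). NXF3, an RNA export factor family gene on the other side of BEX3, rose by 1.08 (limma adjusted p = 0.0114). Without FOXA1-OE tumor 3, TCEAL9, TCEAL8 and TCEAL4 had differences of −1.52, −1.30 and −1.18, TCEAL3 one of −0.24 and NXF3 one of 1.26, and TCEAL3 alone of these 5 genes was not called.

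Of 40 genes in the list of neighbors, 16 were tested, and 3 were called lower and 1 higher. Their median log2 difference was −0.46, against −0.028 over all genes. Without FOXA1-OE tumor 3, 17 were tested, and 5 were called lower and 1 higher (35.3% called, against 7.39% of all genes). The medians were then −0.59 and −0.11. Over chromosome X, 60 of 459 genes tested were called lower (13.1%, against 4.57% of all genes) and 5 higher. Without FOXA1-OE tumor 3 these were 64 of 462 (13.9%, against 5.11% of all genes) and 4. The part of the whole chromosome in the BEX3 difference was not tested.

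**Figure D2:**
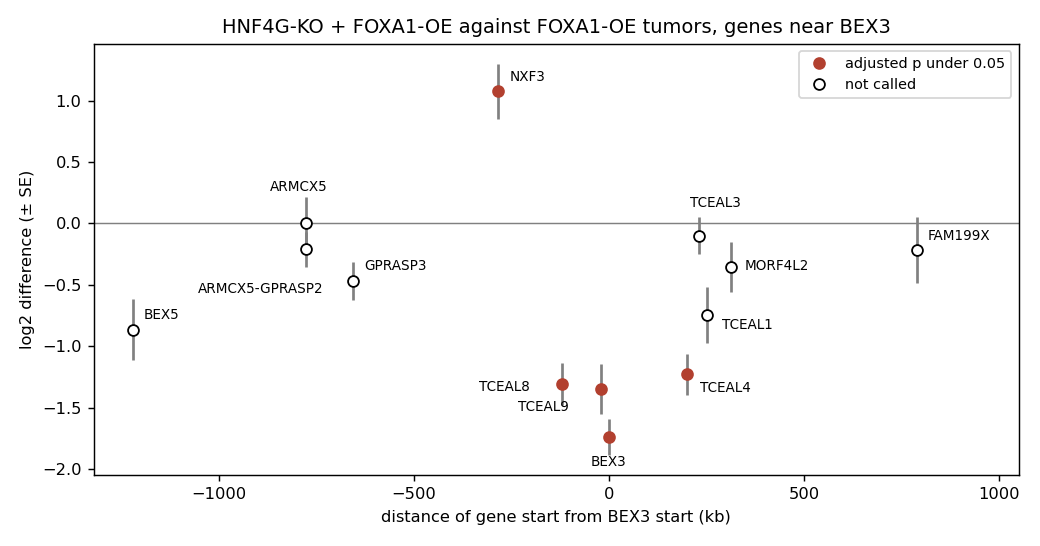
Log2 difference (± SE) of HNF4G-KO + FOXA1-OE against FOXA1-OE tumors, by distance of each gene's start from that of BEX3 in kb; filled points are called. BEX3, TCEAL9, TCEAL8 and TCEAL4 lie between −1.74 and −1.23, while TCEAL3, at 231.1 kb, lies at −0.10.

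Of 24 genes known to act with BEX proteins, 17 were tested and 1 was called in the same comparison (5.88%, near the 7.86% of all genes): SORT1, a co-receptor of NGFR, fell by 0.69 (limma adjusted p = 0.0293). Without FOXA1-OE tumor 3 the difference of SORT1 was −0.71 (limma adjusted p = 0.0498), and 2 of 17 genes were called (11.8%, against 7.39% of all genes). The median difference of the list was −0.048, and −0.15 without that tumor. The ligase genes CUL2 and FEM1B had differences of 0.32 and −0.050, or 0.021 and −0.20 without that tumor, and were not called.

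TCEAL9 was also the gene most like BEX3 over all 21 HPAF-II libraries, with a Pearson r of 0.95 among 14229 genes. SERPINA1 (0.95), SHISA4 (0.90), TGFBI (0.89) and ITGA1 (0.89) followed. The libraries share tumor groups and mice, so these values describe a common pattern across groups. For BEX5 the highest r was 0.82, for a gene with no symbol in the annotation, and BEX5 had an r of 0.50 with BEX3.

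In metastases BEX3 was lower still, with a wide spread. The HNF4G-KO metastases were at 2.84 and 34.5 RPKM. The HNF4G-KO + FOXA1-OE metastases were at 7.95 (spleen), 11.4 (fat), 32.6 (fat) and 16.2 (peritoneum) RPKM. All lay under the lowest HNF4G-KO + FOXA1-OE tumor except the HNF4G-KO metastasis at 34.5 RPKM. Of the HNF4G-KO + FOXA1-OE metastases, only metastasis 2 had FOXA1 within the range of the tumors of that label. For 5 metastases from 4 mice the tumor of the same mouse was sequenced, and HNF4G-KO + FOXA1-OE metastases 1 and 2 share a mouse and its tumor. All 5 metastases were below their tumor, at 6.002%, 76.0%, 19.2%, 27.6% and 37.5% of its RPKM. The share of all genes that were lower in every pair was not counted, so whether this is unusual is not known.

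Over mice, HNF4G-KO + FOXA1-OE metastases differed from tumors of the same label by −1.17 (SE 0.553, 95% interval −2.37 to 0.019). This did not pass the test (limma adjusted p = 0.527, 3 against 4 mice). The fit and the permutation test took the samples as unpaired, though some mice gave both a tumor and a metastasis. With the mouse as a replicate block the difference was −1.29 (limma adjusted p = 0.325). The difference was −2.15 with the stroma level as a covariate (limma adjusted p = 0.192) and −0.78 without metastases 1 and 2 (limma adjusted p = 0.512). The exact permutation p was 0.0571, again the smallest possible. In that comparison 0.00705% of 14179 genes were called. HNF4G-KO metastases differed from HNF4G-KO tumors by −1.96, a value that is described only and rests on metastasis 1: it was −0.35 without it and −3.56 without metastasis 2. The share called there was 0.0423%. Metastasis 1 had a stroma sum of 88.5 RPKM and metastasis 2 one of 482 RPKM. With the stroma level as a covariate the difference was −3.48. BEX5 had differences of 0.13 and 0.36 in these comparisons, and neither passed the test.

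**Figure D3:**
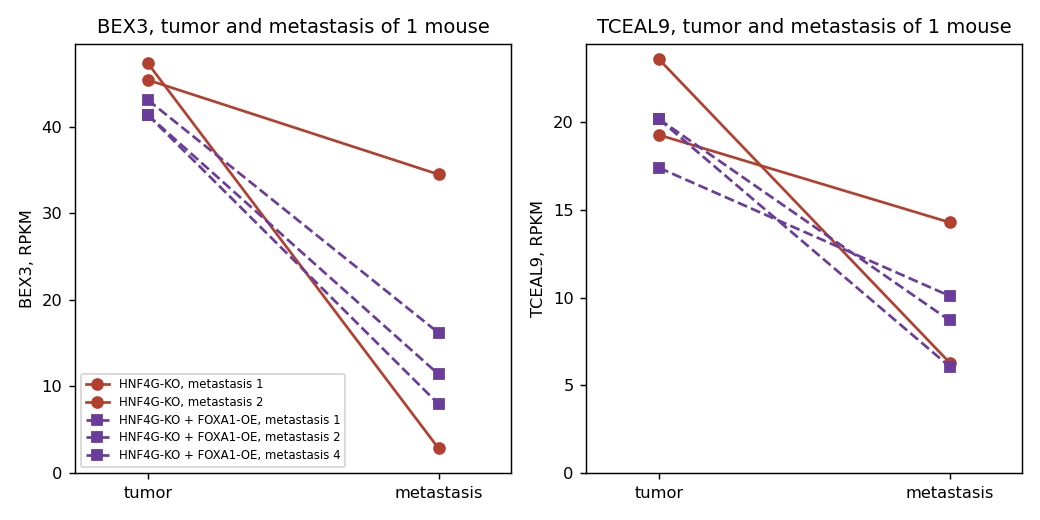
BEX3 (left) and TCEAL9 (right) in RPKM in the primary tumor and the metastasis from 1 animal, joined by a line; red lines are HNF4G-KO mice and dashed purple lines HNF4G-KO + FOXA1-OE mice. The metastasis is lower in 5 of 5 pairs from 4 mice, for both genes, and metastases 1 and 2 of the HNF4G-KO + FOXA1-OE label share a tumor. The share of all genes lower in every pair was not counted.

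In mouse KPC lines, Bex3 was again the one member well above 0, and its direction did not hold across replicate numbers. The tumor line was at 46.8, 41.6, 53.0 and 53.7 RPKM in replicates 1 to 4. The liver metastasis line was at 56.3, 59.4, 30.9 and 33.0 RPKM. The metastasis line was higher at numbers 1 and 2 and lower at numbers 3 and 4, and the groups overlapped. The log2 difference was −0.17 (SE 0.228, 95% interval −0.68 to 0.35, limma adjusted p = 1.0, exact permutation p = 0.543, 4 against 4 libraries), where 0.0% of 12585 genes were called.

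Tceal9 showed the same turn, at 47.7, 43.99, 79.8 and 81.9 RPKM in the tumor line and 77.0, 73.0, 35.9 and 35.3 RPKM in the metastasis line. Over all genes tested, the metastasis minus tumor differences had an r of 0.78 between numbers 1 and 2 and of 0.78 between numbers 3 and 4. Across these sets r ran from −0.75 to −0.70. The same labels thus gave differences of opposite sign, and no direction is drawn for Bex3 from them.

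**Figure D4:**
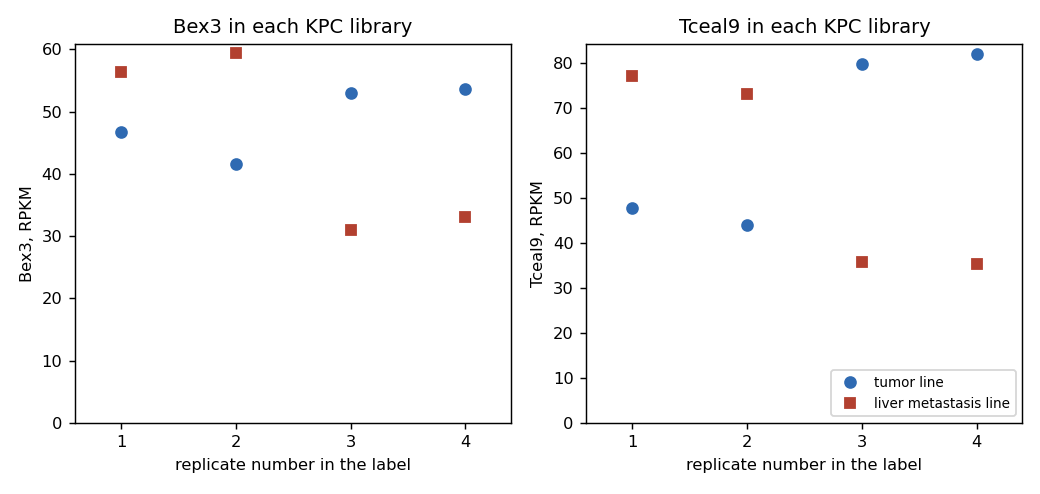
Bex3 (left) and Tceal9 (right) in RPKM by replicate number, for the KPC tumor line (circles) and liver metastasis line (squares). For both genes the squares lie above the circles at numbers 1 and 2 and below them at numbers 3 and 4.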

How the data were processed

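The authors aligned reads with STAR 2.6.1a, counted them with featureCounts 2.0.4 and deposited RPKM values, in a table per species. The study's methods and the submitters' notes name different human builds, so coordinates here are from GENCODE (GRCh38). In the KPC table, 12 columns of other samples were left out. Log2(RPKM + 1) was fitted with limma 3.58.1 in R 4.3.3 (lmFit, eBayes with trend) over genes averaging 1 RPKM or more, with Benjamini-Hochberg adjustment at 0.05. Libraries of the same kind and mouse were averaged first, and the mean of 1 RPKM was taken over these averages. A filter on the mean over libraries was tried as the main filter after a first full fit and then put back as an alternative. The members, gene lists and comparisons were chosen with earlier results of these data known. The named genes were the 5 members, the label checks, the 5 genes of highest Pearson r with a member, and listed neighbors or partners that were called or had the largest differences. TCEAL3, TCEAL1, CUL2, FEM1B and SOX10 were chosen after their values were seen. Same-mouse libraries are paired by the labels (correlation of deviations 0.024 to 0.36); tumor numbers (−0.53 to 0.50) and KPC numbers (−0.41 to 0.21) did not pair samples. Tests were run on simulated data drawn with the spread of the fitted model, which does not check the assumptions of that model. Fewer cells of a type and less RNA per cell cannot be told apart. The p-values set a difference against the spread between these samples only.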

Additional observations from a re-analysis of the deposited data

Results flagged for a closer look

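Across 14 groups of 4 or 5 libraries, 5 values stood apart from the others of their group. All 5 are the single value above 0 in a group otherwise at 0, which meets the criterion whatever its size, so the usual chance rate of 1 in 20 groups does not apply. In HNF4G-KO + FOXA1-OE tumor 5, BEX1 was at 0.552 RPKM and BEX4 at 0.111 RPKM. In HNF4G-KO tumor 2, BEX4 was at 0.026 RPKM (about 2 reads). In the KPC lines, Bex1 was at 0.043 RPKM in tumor line library 1 and Bex2 at 0.059 RPKM in liver metastasis line library 1. The last 3 values are under the level of 3 reads.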

How the results depend on the processing

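BEX3 in HNF4G-KO + FOXA1-OE against FOXA1-OE tumors kept its direction and its call under all 15 alternatives, with differences of −1.79 to −1.70 (the same range without each mouse in turn) and limma adjusted p of 1.89e-05 to 0.0182. With the tumor number as a replicate block it was −1.76. Filtering on the mean over libraries tested 14269 genes in place of 14307 and left it at −1.74. The genes called over the table were less stable, 1124 in the main analysis, 84 with only the groups compared, 1689 with the stroma covariate, 2414 with the block and 568 without FOXA1-OE tumor 1.

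In HNF4G-KO metastases against tumors, described only, BEX3 was −3.48 with the stroma covariate and −3.56 to −0.35 without each mouse. The HNF4G-KO against control difference, described only, was −1.53 with the stroma covariate and −1.48 to −1.30 without each mouse in turn. In HNF4G-KO + FOXA1-OE metastases BEX3 stayed uncalled throughout, from −1.61 to −0.78 without each mouse, −2.15 with the stroma covariate and −1.29 with the mouse as a replicate block. Bex3 in KPC lines was −0.32 to −0.014 without each library and −0.17 with the replicate block. BEX5 in HNF4G-KO + FOXA1-OE against FOXA1-OE tumors passed the threshold under 6 of 15 alternatives (limma adjusted p 0.00422 to 0.228). BEX5 turned to −0.061 in FOXA1-OE against control tumors with the stroma covariate, and to −0.0094 in HNF4G-KO + FOXA1-OE metastases without metastasis 3 (−0.0094 to 0.25 without each mouse); the cause was not tested.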
